A study of Homo sapiens and Mus musculus with 10 samples.

Results

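Telomerase component genes were examined in bulk ATAC-seq peak lists, as 3 genes of GENCODE release 44: TERT, TERC and DKC1. They were chosen by name and are 3 of the 62062 annotated genes on the human autosomes and X. ATAC-seq finds open chromatin through the places where the Tn5 transposase inserts sequencing adapters. The study profiled 5 untreated lines with 2 replicate libraries each. GM12878 cells are EBV-transformed B lymphocytes, K562 cells derive from a myeloid leukaemia with erythroid features, and HEK293T cells from embryonic kidney with viral oncogenes, the SV40 large T antigen among them; these 3 lines grow without limit and are called immortal here. HFF1 is a foreskin fibroblast line and was the only mortal human line, so that a difference between immortal and mortal cells cannot be told apart from a difference between HFF1 and other lines. The mESC libraries came from mouse embryonic stem cells. The labels do not say whether the replicates of a line came from separate cultures, so the p-values below measure the spread between these libraries, which may be technical.

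Telomerase copies a short repeat onto chromosome ends. TERT encodes its reverse transcriptase, TERC is its RNA template, and DKC1 encodes dyskerin, a protein that binds and stabilises TERC and other H/ACA RNAs. TERT is known to be silent in most somatic cells and active in most immortal ones, while TERC and DKC1 are known to be expressed widely. An ATAC-seq peak shows open chromatin and does not measure RNA.

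On GRCh38, TERT (ENSG00000164362.21) lies on the minus strand at chr5:1253147-1295068, with 7 transcripts and 6 start sites. TERC (ENSG00000270141.3), a non-coding RNA gene with 1 start site, lies on the minus strand at chr3:169764520-169765060. DKC1 (ENSG00000130826.19) lies on the plus strand at chrX:154762742-154777689, with 32 transcripts and 23 start sites. Distances are counted in the direction of transcription from the canonical start site, whose first base is 0, so that negative values lie upstream. The canonical start sites are base 1295068 for TERT, base 169765060 for TERC and base 154762864 for DKC1.

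The 250 bases before the start sites of TERT and DKC1 are shown because the peaks of the 4 human lines cover them to different extents at TERT and in full at DKC1. They are RefSeq sequences of GRCh38.p14, given on the strand of the gene, and 2 of the 3 genes were matched in the promoter table. TERT is chr5:1295069-1295318 on the minus strand and DKC1 is chrX:154762614-154762863 on the plus strand. Capitals mark matches on either strand to the E-box CACGTG and the GC box GGGCGG, and to the palindromic NRF1 motif.
TERT: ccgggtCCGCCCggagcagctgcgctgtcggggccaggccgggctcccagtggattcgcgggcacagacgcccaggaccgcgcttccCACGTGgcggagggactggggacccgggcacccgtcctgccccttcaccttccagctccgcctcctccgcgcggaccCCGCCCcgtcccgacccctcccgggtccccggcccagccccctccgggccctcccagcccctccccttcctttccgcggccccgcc
DKC1: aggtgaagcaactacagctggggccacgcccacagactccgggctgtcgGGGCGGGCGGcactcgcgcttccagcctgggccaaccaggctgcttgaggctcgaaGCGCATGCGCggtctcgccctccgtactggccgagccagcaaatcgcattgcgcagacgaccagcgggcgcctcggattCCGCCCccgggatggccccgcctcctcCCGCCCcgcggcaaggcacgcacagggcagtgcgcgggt

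The TERT sequence is 78.8% G and C with 28 CpG dinucleotides, and the DKC1 sequence is 72% G and C with 29. TERT holds an E-box at -163 to -158 and GC boxes at -244 to -239 and -86 to -81. DKC1 holds 4 GC boxes, of which those at -201 and -197 overlap, and an NRF1 match at -145 to -136. Among the 35116 promoters of the table, read over 300 bases on both strands, an E-box of these letters occurs in 7.26%, a GC box in 45% and the NRF1 motif in 1.24%. The CCAAT, ETS core CCGGAA and TATAAA letters, found in 34.6%, 17.2% and 11.5% of promoters, have no match in either window. A match describes the letters and is no evidence of a bound factor.

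Depth differed between lines. It was read from the background level, the most frequent number of background reads that the peak caller assigned per window in a library. That level was 0.465 and 0.466 reads in the HEK293T libraries, 1.71 and 1.73 in GM12878, 2.21 and 1.97 in K562, and 2.43 and 2.06 in HFF1. A list held 52137 or 52438 peaks in HEK293T and 71241 or 78601 in K562, and the lists of GM12878 (101704 and 103715) and HFF1 (120344 and 127359) were longer. HEK293T was therefore the shallowest line, while the levels of K562 and HFF1 overlapped. Of 5 marker genes fixed for each line, a start-site peak was found in both libraries for 5 in GM12878, 5 in HFF1, 4 in HEK293T and 3 in K562. SOX11 had no peak in HEK293T. The erythroid genes KLF1 and HBG1 had none in K562. HBG1 has a near-identical neighbour, HBG2, so that reads there can map to either copy. Whether this bears on the missing HBG1 peak was not tested.

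TERT, the catalytic subunit, was the only member whose start site was not called in every human library. A peak lay within 1 kb of a TERT start site in 5 of the 6 immortal libraries and in neither HFF1 library. GM12878 had the widest peaks, K562 narrower ones, HEK293T a short one in a single library. A start-site peak was found in both libraries for 71.9% of 19970 protein-coding genes in GM12878, 67.8% in HEK293T, 70.4% in K562 and 76.2% in HFF1, so a gene without one in HFF1 was in the minority. The exact library pattern of TERT was shared by 16 protein-coding genes (0.0801%), TERT included. A peak in all 6 immortal libraries and none in HFF1 was found for 0.330% of genes, and the reverse for 2.05%; no member had either pattern.

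In GM12878 the TERT peak spanned chr5:1294561-1295706 in replicate 1 and chr5:1294828-1295685 in replicate 2. Their widths were 1146 and 858 bp, and their summits lay at -8 and 32 bp, on either side of the start site. At the summits 74 and 89 reads were piled up, and the authors' deposited folds over local background were 6.04 and 7.03. Both peaks covered all 250 bases of the printed upstream sequence and the 79 bases of the 5′ UTR. That of replicate 1 covered all of exon 1 and reached exon 2, and that of replicate 2 ended within the coding sequence of exon 1.

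In K562 the peak was narrower and lower. It spanned chr5:1294889-1295238 (350 bp) in replicate 1 and chr5:1294848-1295202 (355 bp) in replicate 2, with summits at 15 and -16 bp. The summits held 23 and 22 reads, and the deposited folds were 3.26 and 3.5. These peaks covered 170 and 134 of the 250 upstream bases. The E-box at -163 therefore fell inside the peak of replicate 1 and outside that of replicate 2, while the GC box at -86 fell inside both.

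In HEK293T a peak was called in replicate 1 alone, at chr5:1294819-1294993. It was 175 bp wide, its fold was 6.29, and its summit, with 10 reads, lay 177 bp into the gene, in the coding sequence of exon 1. It did not reach the canonical start site and covered 0 of the 250 upstream bases. HEK293T replicate 2 and both HFF1 libraries had no peak within 1 kb of any TERT start site.

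**Figure D1:**
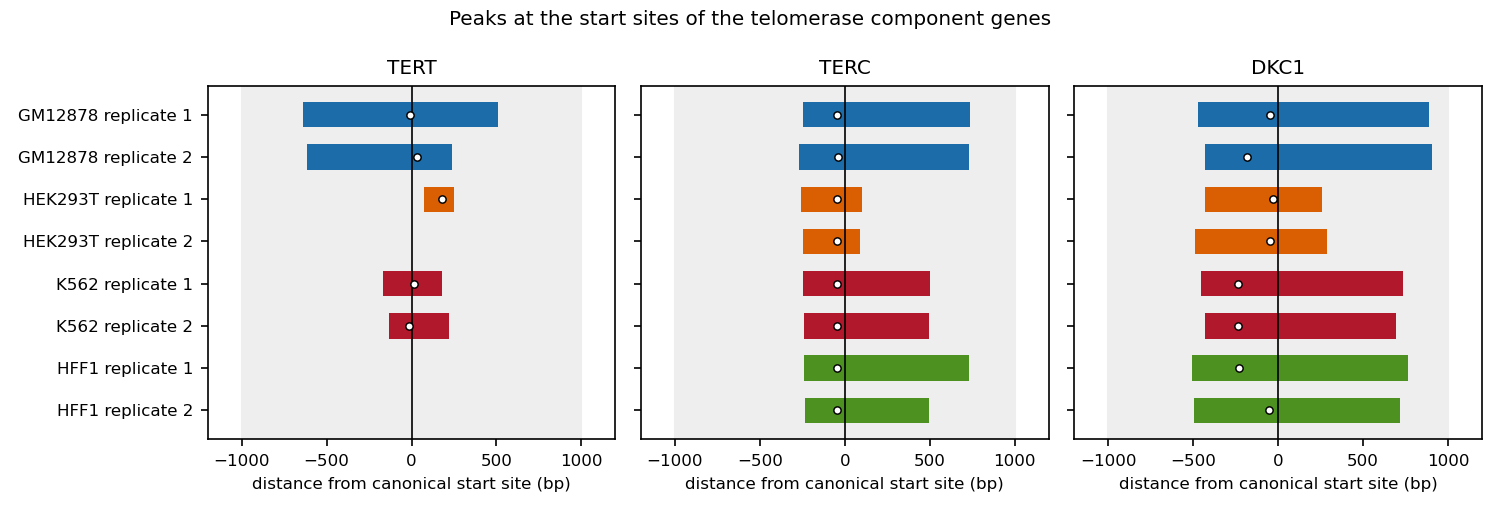
Peaks within 1 kb of the canonical start sites of TERT, TERC and DKC1 in the 8 human libraries. The x axis is the distance from the start site in bp, negative upstream; bars are peaks, white points their summits, the black line the start site and the grey band 1 kb on either side. TERT has bars in 5 libraries and none in HFF1; TERC and DKC1 have bars in all 8.

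The TERT peaks had low folds for their libraries. Among the genes with a start-site peak in a library, 12.5% and 19.3% had a lower highest fold than TERT in GM12878 replicates 1 and 2. That share was 7.03% in HEK293T replicate 1 and 0.325% and 0.596% in K562 replicates 1 and 2. In K562 nearly every other gene with a start-site peak thus had a higher fold. By reads at the summit, the 74 and 89 reads in GM12878 were above the median peak of those libraries, 35 reads, whereas the TERT peaks of K562 and HEK293T were below their medians of 30 and 16 reads. In GM12878 the local background at TERT was 6.67 and 6.81 times the background level. None of the 5 TERT peaks was among the 20000 peaks of lowest p in its library.

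Whether the missing calls lay within reach of the depth was computed from the caller's own p-value. With the ratio of local background to background level seen at TERT in K562, 18 reads in HFF1 replicate 1 and 16 in replicate 2 would have passed the lowest p in those lists. A pile as high as that of K562, scaled to HFF1 depth, would hold 25.3 to 27.2 reads in replicate 1 and 21.5 to 23.1 in replicate 2. With the higher ratio seen at TERT in GM12878, 32 or 33 reads in replicate 1 and 29 in replicate 2 would have been needed, more than a pile of K562 size. Whether such a pile would have been called in HFF1 thus turned on the local background there, which is not known. A pile as high as that of GM12878 would hold 105.2 to 124.9 reads in HFF1 replicate 1 and 89.1 to 105.8 in replicate 2. One as high as that of HEK293T replicate 1 would hold 52.3 and 44.3. These lie above the reads needed at each ratio seen at TERT. In HEK293T replicate 2 the comparison at the K562 ratio gave 4.85 to 5.21 reads against 8 needed, so a K562-like signal would not have been called at that ratio. A pile like that of HEK293T replicate 1 would have held 10 reads in replicate 2, against 6 needed at the ratio of replicate 1. One of GM12878 size would have held 20.1 to 23.9 reads, against 12 needed at the GM12878 ratio. The local background is not known in that library either.

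The length covered by peaks within 1 kb of any start site of TERT was 1002 ± 203.6 bp in GM12878, 352.5 ± 3.54 bp in K562, 87.5 ± 123.7 bp in HEK293T and 0 bp in both HFF1 libraries (mean ± SD, n = 2 each). The order of the lines was clear between GM12878 and K562, whose libraries did not overlap, whereas HEK293T and HFF1 shared the value 0. Eta squared, the part of the variance among libraries that lies between lines, was 0.956 (adjusted p = 0.04, exact one-sided permutation test over all splits of 8 libraries into 4 pairs, Benjamini-Hochberg over 7 values). This call was lost without K562 replicate 2 (adjusted p = 0.0667, exact permutation test). It was also lost after random scaling of piles to the background level of the shallowest library, which left the TERT peak in 3 libraries. The same held when only peaks with a −log10 q of at least 5 were kept (adjusted p = 0.143 in each setting, exact permutation test). Scaling kept a random part of the reads of each pile, in a single draw, and the spread between draws was not measured. It removed whole peaks and left the width of the others unchanged, so it cannot show how depth affects covered length. Immortal libraries exceeded HFF1 by 480.7 bp on average, with an adjusted p of 1 in the exact two-sided permutation test over 28 splits; the smallest unadjusted p that this design allows is 0.0714, so that no difference between these groups could pass.

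TERC, the RNA subunit, had a peak at its start site in all 8 human libraries, as did 11916 protein-coding genes (59.7%). The summits were nearly fixed, at -38 to -46 bp, within 8 bases of each other across the 4 lines. The upstream edge was steady too, 233 to 270 bp before the start site. The peaks differed mainly in how far they reached into and beyond the 541 bp gene.

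In GM12878 the TERC peak was 987 and 1002 bp wide and ended 738 and 731 bp after the start site, past the end of the gene. In HFF1 it was 972 and 730 bp wide, and in K562 747 and 735 bp. In HEK293T, the shallowest line, it was 360 and 337 bp wide and ended 102 and 88 bp after the start site. GM12878 was highest and HEK293T lowest without overlap, while the HFF1 libraries lay on either side of both K562 libraries. For what share of genes covered length separates lines in this way was not computed, here or at TERT and DKC1.

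The deposited fold at TERC was 7.19 and 7.44 in GM12878, 8.56 and 9.36 in HEK293T, 8.09 and 9.26 in HFF1, and 9.7 and 9.22 in K562. Fold did not follow width: GM12878 had the widest peaks and the lowest folds. Among genes with a start-site peak, 20.9% to 58.2% had a lower fold than TERC, with the lowest share in GM12878 replicate 1 and the highest in K562 replicate 1. TERC peaks therefore ranked above the TERT peak of the same library in each of the 5 libraries that had one.

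Covered length at TERC was 994.5 ± 10.6 bp in GM12878, 851 ± 171.1 bp in HFF1, 741 ± 8.49 bp in K562 and 348.5 ± 16.3 bp in HEK293T (mean ± SD, n = 2 each). Eta squared between lines was 0.939 (adjusted p = 0.0444, exact one-sided permutation test). The call was lost without GM12878 replicate 1 (0.0667), GM12878 replicate 2 (0.0778), K562 replicate 1 (0.0556) or K562 replicate 2 (0.0667), each an adjusted p of the exact permutation test. The immortal mean was 694.7 bp against 851 bp in HFF1, and the difference was -156.3 bp (adjusted p = 1, exact two-sided permutation test). By mean the lines were ordered at TERC as HEK293T, K562, HFF1 and GM12878, with K562 and HFF1 libraries overlapping. HEK293T also had the lowest background level, and an effect of depth on these lengths was not tested.

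DKC1, the dyskerin gene, had a start-site peak in all 8 libraries, again with 59.7% of protein-coding genes as background. GM12878 libraries had canonical start-site peaks of 1360 and 1340 bp, followed by those of HFF1 with 1275 and 1215 bp, K562 with 1187 and 1125 bp, and HEK293T with 693 and 778 bp. It covered all of the 250 printed bases in every library, from the paired GC boxes at -201 to the start site. Deposited folds ran from 8.49 in K562 replicate 2 to 12.1 in HEK293T replicate 2.

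The DKC1 summits fell at either of 2 places. They lay at -27 to -54 bp in GM12878 replicate 1, both HEK293T libraries and HFF1 replicate 2. They lay at -182 to -237 bp in GM12878 replicate 2, HFF1 replicate 1 and both K562 libraries. In GM12878 and HFF1 the replicates differed in this, so the place of the summit did not separate those lines.

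A second DKC1 peak lay in intron 13, close to an internal annotated start site. It spanned 204 bp at chrX:154775706-154775909 in K562 replicate 1, with 34 reads and a fold of 4.81, and 239 bp at chrX:154775671-154775909 in K562 replicate 2, with 28 reads and a fold of 4.13. HEK293T replicate 2 had a 151 bp peak in the same place with 10 reads and a fold of 5.7. The other 5 libraries had none.

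With both peaks counted, DKC1 covered 811 ± 166.9 bp in HEK293T, 1245 ± 42.4 bp in HFF1, 1350 ± 14.1 bp in GM12878 and 1377.5 ± 19.1 bp in K562 (mean ± SD, n = 2 each). K562 and GM12878 were separated by 4 bp at the nearest libraries, and HEK293T was lowest. Eta squared between lines was 0.932 (adjusted p = 0.0222, exact one-sided permutation test, with an unadjusted p of 0.00952, the smallest the design can give). The immortal minus HFF1 difference was -65.5 bp (adjusted p = 1, exact two-sided permutation test).

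In the mouse lists all 3 genes had a peak at the outermost annotated start site in both mESC libraries. A peak at any start site was found in both for 73.1% of 21755 mouse protein-coding genes. On the mm10 assembly the Tert peak spanned chr13:73626280-73627339 in replicate 1 and chr13:73626500-73627400 in replicate 2, with folds of 10.3 and 12.4. Terc had folds of 4.66 and 3.74 and widths of 611 and 641 bp, and Dkc1 had folds of 12.8 and 12.5 and widths of 709 and 715 bp. Tert thus had a higher fold than Terc in both mouse libraries, while in the 5 human libraries with both peaks TERT had the lower fold. Folds are each library's own and no test across species was made.

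The other genes of the telomerase and telomere pathways were open in nearly every library. They come from lists of H/ACA proteins and assembly factors (10 genes, DKC1 among them), the shelterin complex that caps telomeres (6), the CST complex that helps fill in the telomeric C strand (3), and known regulators of the TERT promoter (6). A start-site peak was found in all 8 libraries for 10 of 10, 6 of 6, 2 of 3 and 6 of 6 genes, or 24 of 25 in all (96%), against 59.7% of protein-coding genes. The exception was CTC1, the large CST subunit, which had no peak in HEK293T replicate 1 and folds from 5.87 to 8.35 in the other 7 libraries.

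None of the 25 genes shared the absence of TERT from HFF1. GABPA and GABPB1, whose ETS-family complex is known to act on the TERT promoter, had folds in HFF1 of 8.37 and 9.45, and of 6.7 and 7.48. WT1, a zinc-finger factor, had folds of 3 and 4.75 in the HFF1 libraries and 7.19 to 8 in the 6 immortal ones. It was named after its values were seen, and the share of genes with folds ordered this way was not computed. RUVBL1, an ATPase of telomerase assembly, and POT1, the shelterin subunit on single-stranded telomeric DNA, were among the highest, at 14.8 to 19.5 and 12.7 to 21.4.

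**Figure D2:**
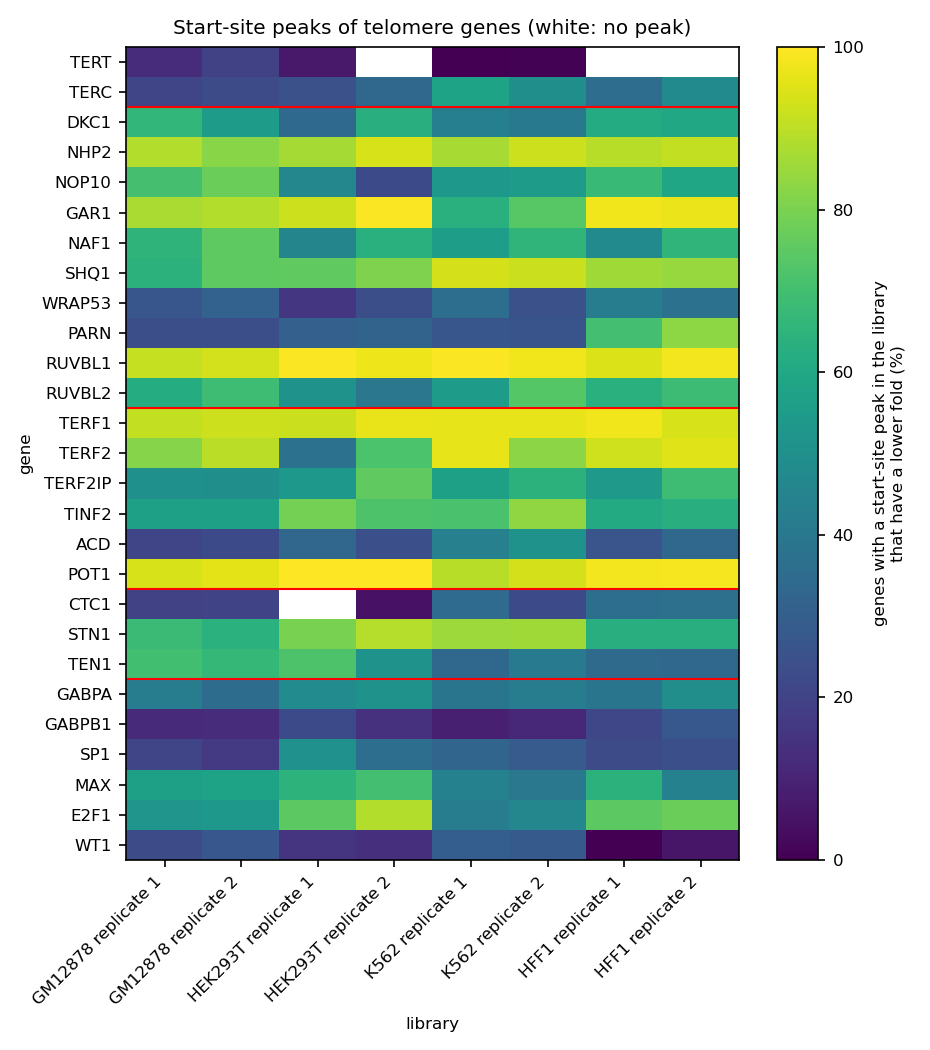
Share of genes with a start-site peak in a library whose highest fold is lower than that of the named gene, in percent (colour), for TERT, TERC and the 25 listed genes (rows) in the 8 human libraries (columns); white marks no peak, and red lines separate the lists. TERT is dark or white throughout, between 0.325% and 19.3% where it has a peak, and CTC1 is white in HEK293T replicate 1.

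The window of 100 kb on either side of TERT held 18 and 18 peaks in GM12878, 11 and 12 in HEK293T, 16 and 15 in K562, and 18 and 13 in HFF1. HFF1 spanned the range of the other deep lines, and HEK293T was lowest. Protein-coding genes had medians of 15 peaks in GM12878, 7 or 8 in HEK293T, 12 or 13 in K562 and 17 in HFF1, so the TERT window lay above the median in 7 of 8 libraries and below it in HFF1 replicate 2.

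The number of peaks near TERT did not pass the test between lines (eta squared 0.763, adjusted p = 0.143, exact one-sided permutation test). It did without HFF1 replicate 1 (adjusted p = 0.0222) or HFF1 replicate 2 (0.0333), each by the exact permutation test, as the 2 HFF1 libraries differed by 5 peaks. Covered length was 7606 ± 216.4 bp in GM12878, 5951 ± 79.2 bp in K562, 5595.5 ± 948.2 bp in HFF1 and 2806 ± 328.1 bp in HEK293T (mean ± SD, n = 2 each), with an eta squared of 0.957 (adjusted p = 0.04, exact one-sided permutation test). That call was lost without GM12878 replicate 2 (adjusted p = 0.0533, exact permutation test).

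The TERC window held 15 and 14 peaks in GM12878, 7 and 7 in HEK293T, 13 and 13 in K562, and 11 and 11 in HFF1. The lines did not overlap, and eta squared was 0.992 (adjusted p = 0.0222, exact one-sided permutation test). Medians over protein-coding genes, given with the TERT window, differed between lines too. In what share of gene windows the lines separate was not computed. After the random scaling to the shallowest library, the peak numbers became 12 and 14, 7 and 7, 10 and 7, and 8 and 10. The call was then lost (adjusted p = 0.1, exact permutation test), and how far these numbers vary between draws was not measured. Covered length was 6987 ± 166.9 bp in GM12878, 5859 ± 56.6 bp in HFF1, 4760 ± 325.3 bp in K562 and 2914 ± 7.07 bp in HEK293T (mean ± SD, n = 2 each), with an eta squared of 0.992 (adjusted p = 0.0222, exact one-sided permutation test).

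Between immortal and HFF1 libraries no outcome of the exact two-sided permutation test could have passed, since its smallest p is 0.0714. Immortal minus HFF1, peak number differed by -0.5 at TERT and 0.5 at TERC, and covered length by -141.2 and -972 bp (adjusted p = 1 for each in the exact permutation test). In neither window did all 6 immortal libraries lie above both HFF1 libraries. Over all protein-coding genes this held for 1.96% of windows by peak number and 2.10% by covered length, and the opposite order for 34.9% and 43.8%.

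Set against the length of each list, HFF1 was lowest in both windows. The TERT window held 14.1 and 10.8 peaks per 100000 peaks of the library in HFF1, 17.7 and 17.4 in GM12878, 21 and 23 in HEK293T, and 20.4 and 21.1 in K562. The TERC window held 8.64 and 9.14 in HFF1 and 13.3 to 18.2 in the immortal libraries. HFF1 had the longest lists, and all 6 immortal libraries lay above both HFF1 libraries on this scale in 27.1% of protein-coding gene windows and below both in 10.1%, so the order at TERT and TERC was a common one. The immortal minus HFF1 difference was 7.61 peaks per 100000 at TERT and 6.08 at TERC, each at the smallest unadjusted p of the exact two-sided permutation test, 0.0714 (adjusted p = 0.167 for each).

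**Figure D3:**
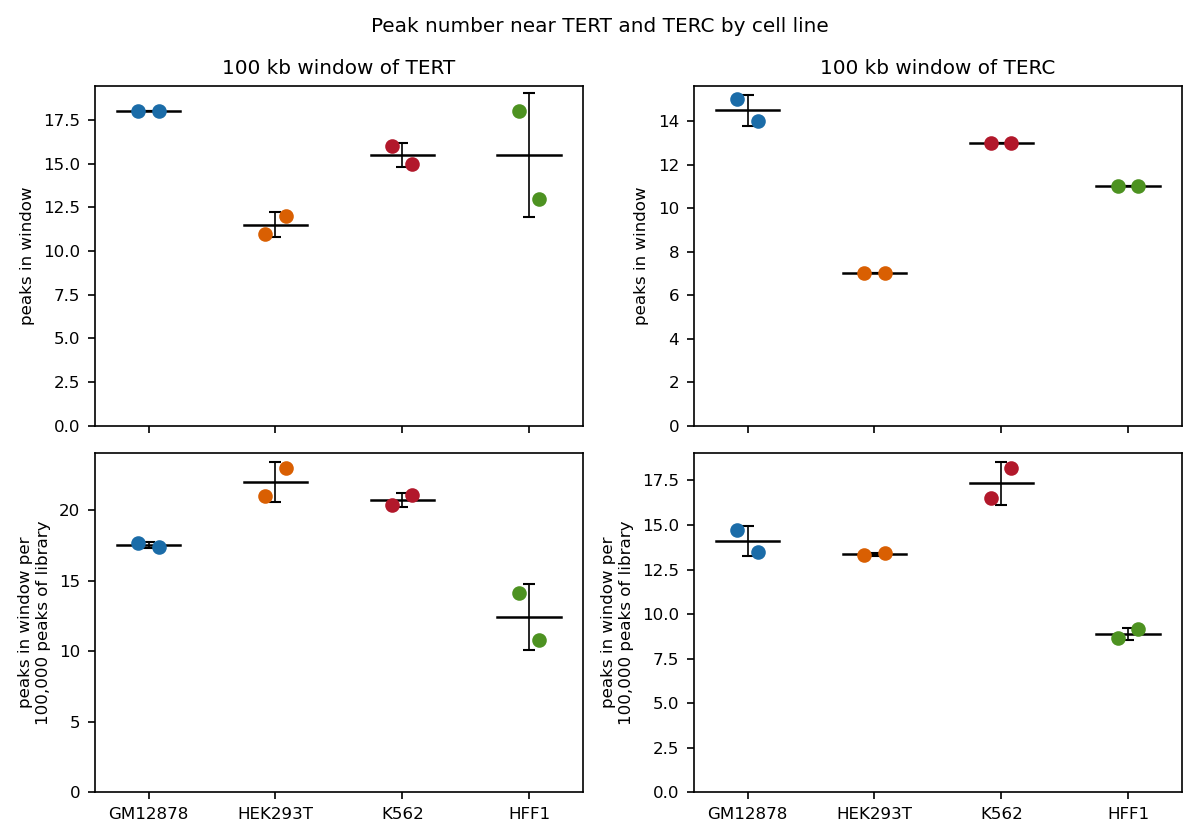
Peaks in the 100 kb windows of TERT (left) and TERC (right), as numbers (top) and per 100000 peaks of the library (bottom). Points are libraries, horizontal lines the mean of 2 and bars the SD. By number HFF1 lies among the other lines, and per 100000 peaks it is lowest in both windows.

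In the TERT window, overlapping peaks from the human libraries formed 35 merged regions. A peak in all 8 libraries was found in 5 regions (14.3%, against 8.53% of 243200 merged regions genome-wide). No region was present in all 6 immortal libraries and absent from HFF1 (0.949% genome-wide). The region at the TERT start site missed that class by 1 library, and without HEK293T replicate 2 it was the single member. Regions in both libraries of a single line numbered 3 in GM12878 (14.7% genome-wide), 1 in K562 (6.31%), 1 in HFF1 (21.2%) and 0 in HEK293T (1.78%). A further 11 were found in a single library (25.1%).

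Of the 5 regions open in all libraries, 3 lay upstream of TERT and 2 downstream. Upstream of TERT they were the promoter shared by CLPTM1L and the non-coding ENSG00000286388 (folds 6.45 to 12.8), the start of LINC01511 (7.67 to 17.3) and that of ENSG00000279908 (7.91 to 14.4). Downstream they were chr5:1167586-1168588, between genes (5.77 to 10.6), and chr5:1174325-1174835 in an intron of the non-coding TERLR1 (5.19 to 8.91). The start sites of the amino acid transporter genes SLC6A18 and SLC6A19, and of TERLR1, MIR4457 and ENSG00000287486, had no peak in any library. The pseudogene MTCO2P32 had one nearby in GM12878 only, with folds of 5.82 and 5.32.

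The body of TERT was nearly free of peaks. Its 41922 bp held the start-site peaks and 1 further peak, in intron 6 of GM12878 replicate 2 (fold 4.13). Just upstream, with a summit at -2342 bp, both GM12878 libraries had a weak peak of 3.33 and 3.17 fold. A region nearer CLPTM1L, at chr5:1332491-1333028 in its intron 7, came closest to an immortal pattern away from TERT. Its folds were 6.66 and 8.63 in GM12878, 7.1 and 7.87 in K562 and 4.05 and 5.14 in HEK293T, against 2.99 in HFF1 replicate 1 and no peak in replicate 2. Without HFF1 replicate 1 this region entered the class of all immortal libraries and no HFF1.

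**Figure D4:**
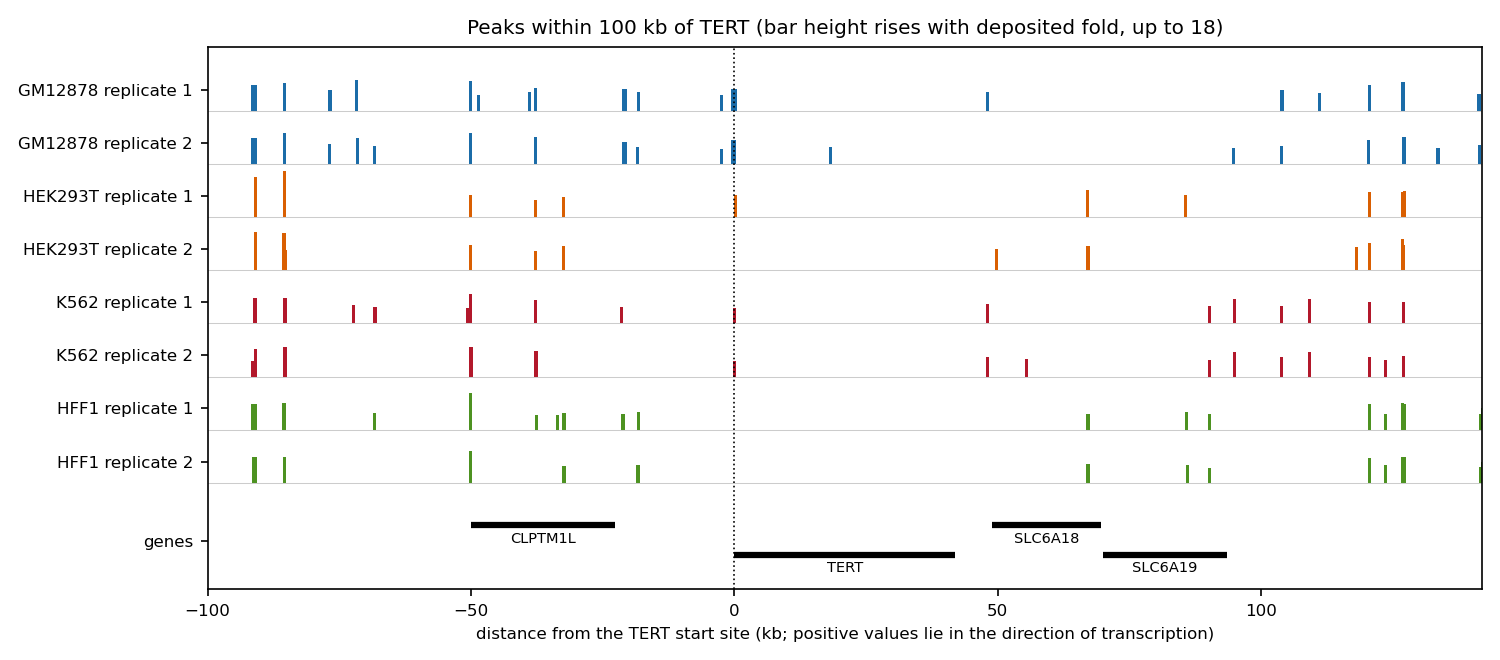
Peaks within 100 kb of TERT in the 8 human libraries. The x axis is the distance from the TERT start site in kb, positive in the direction of transcription; bars are peaks (drawn at least 0.6 kb wide), bar height rises with deposited fold, and black lines are TERT and protein-coding genes that start in the window. The CLPTM1L promoter and both ends of the window carry bars in all 8 libraries, and the bar at 0 is missing in HEK293T replicate 2 and in HFF1.

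The TERC window held 26 merged regions. A peak in all 8 libraries was found in 4 (15.4%): the TERC start site, a region with its summit 1952 bp downstream at chr3:169762988-169763289 (folds 5.53 to 7.58), the promoter of the zinc-finger gene MYNN (8.22 to 10.6) and chr3:169668578-169669511, 4803 bp from the nearest MECOM start (9.25 to 13.8). As at TERT, no region was present in all immortal libraries and absent from HFF1. GM12878 alone had 5 regions (19.2%, against 14.7% genome-wide) and K562 alone 4 (15.4%, against 6.31%). HFF1 alone had 1 (3.85%, against 21.2%) and HEK293T alone 0 (1.78% genome-wide). A further 7 came from a single library (26.9%, against 25.1%). Genome-wide, 8.53% of merged regions were found in all 8 libraries.

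K562 lacked peaks at some gene starts beside TERC that the other lines had. The genome-wide share of starts with this pattern was not computed. The shared start of ACTRT3 and ENSG00000269889 had weak peaks, with folds of 2.79 to 4.84, in the 6 libraries of the other 3 lines and none in K562. The promoter shared by LRRC34 and LRRIQ4 (chr3:169812033-169813182) had folds of 7.14 to 11.6 in those 6 libraries and none in K562. Within 1 kb of these starts K562 replicate 1 had a peak of fold 7.17 further into LRRIQ4, at a site that was also open in GM12878 (9.55 and 10.2). Conversely, K562 alone had peaks within 1 kb of the ENSG00000269984 start. A peak found in both libraries had folds of 5.3 and 4.04. K562 replicate 2 had a separate peak beside it, with a fold of 5.06. Of the other genes that start in the window, the pseudogene SDHDP3 had a peak in K562 replicate 1 (fold 3.74), and RNU6-637P, ENSG00000270135 and ENSG00000270096 had none in any library.

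GM12878 had regions of its own at the far upstream side of TERC. Of its 5 own regions, 3 lay in introns of LRRIQ4 and LRRC31, with folds of 12.2 and 13.2, 5.9 and 5.86, and 11.6 and 13.2 in replicates 1 and 2. These were higher than the GM12878 folds at TERC itself in 2 of the 3.

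**Figure D5:**
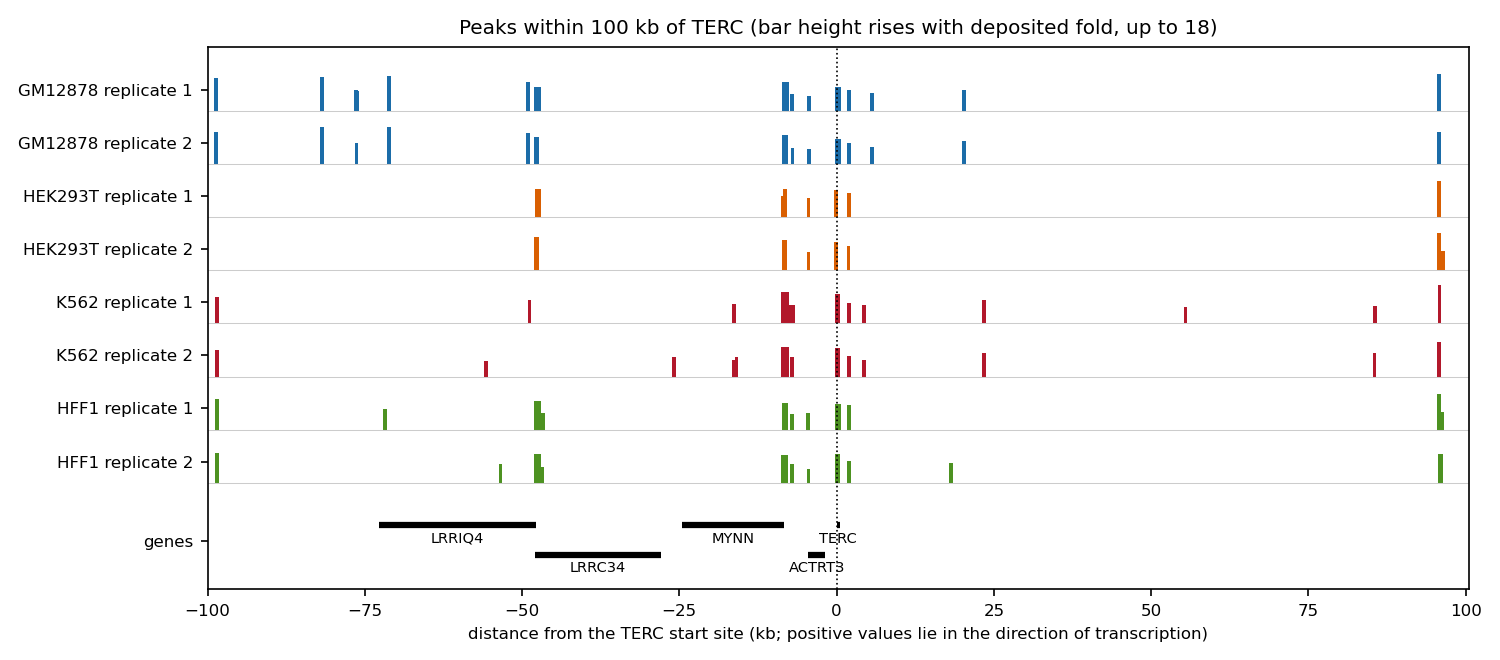
Peaks within 100 kb of TERC in the 8 human libraries, drawn as for TERT; LRRC31, which starts outside the window, is not drawn. TERC, MYNN and the region near the right end carry bars in all 8 libraries, K562 lacks the bars at the shared LRRC34 and LRRIQ4 promoter, and GM12878 has further bars at the far left.

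Sequences around the summits of 6 regions are shown. They are the region closest to an immortal pattern and, for each window and line, the region of highest fold among those found in both libraries of that line and in no other; that of K562 in the TERC window (folds 4.36 and 7.08) was searched too, holds none of the motifs and is not printed. Each runs 75 bases to either side of the summit in the library of highest fold, from the plus strand of GRCh38. Capitals mark a match on either strand to 1 of 8 motifs chosen after the regions were known: those named for the GATA factors, which read AGATAA, for AP-1, which read TGANTCA, for RUNX, which read TGTGGT, for PU.1, which read GAGGAA, and for TEAD, which read GGAATG, the E-box and GC box given above, and a CTCF core. The central 51 bases of each occur at 1 place on the autosomes and X.
CLPTM1L intron 7, all immortal libraries and HFF1 replicate 1, chr5:1332619-1332769: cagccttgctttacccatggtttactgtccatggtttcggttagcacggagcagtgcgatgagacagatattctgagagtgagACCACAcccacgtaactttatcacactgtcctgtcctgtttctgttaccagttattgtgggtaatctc
LINC01511 intron 1, GM12878 alone, chr5:1366592-1366742: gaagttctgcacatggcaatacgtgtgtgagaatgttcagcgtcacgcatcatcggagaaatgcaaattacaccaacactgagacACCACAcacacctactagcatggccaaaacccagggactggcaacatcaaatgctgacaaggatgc
between TERLR1 and SLC6A19, K562 alone, chr5:1185730-1185880: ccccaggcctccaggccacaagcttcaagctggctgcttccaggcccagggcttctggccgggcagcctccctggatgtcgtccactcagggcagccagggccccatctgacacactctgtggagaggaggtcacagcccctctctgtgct
outer edge of the TERT window, between genes, HFF1 alone, chr5:1152818-1152968: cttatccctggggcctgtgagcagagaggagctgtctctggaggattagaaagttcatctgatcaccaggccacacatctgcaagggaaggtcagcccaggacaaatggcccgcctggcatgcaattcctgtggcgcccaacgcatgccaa
LRRIQ4 intron 5, GM12878 alone, chr3:169836164-169836314: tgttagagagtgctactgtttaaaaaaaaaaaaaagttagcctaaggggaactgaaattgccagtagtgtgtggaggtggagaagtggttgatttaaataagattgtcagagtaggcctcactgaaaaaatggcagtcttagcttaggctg
LRRC34 intron 1, HFF1 alone, chr3:169811621-169811771: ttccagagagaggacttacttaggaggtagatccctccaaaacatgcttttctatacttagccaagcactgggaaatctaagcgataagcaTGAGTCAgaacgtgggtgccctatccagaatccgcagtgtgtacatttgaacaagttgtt

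The RUNX letters are found in the CLPTM1L and LINC01511 windows, 8 and 10 bases past the summit, and in 15% of all 243200 summit windows. The AP-1 letters are found in the HFF1 region of LRRC34, 16 bases past the summit, and in 16.9% of summit windows. The other 3 printed windows hold none of the 8 motifs. The GM12878 region of LINC01511 had folds of 10.3 and 8.14, the K562 region between genes 7.26 and 7.38, and the HFF1 region of LRRC34 3.8 and 3.69. The HFF1 region at the outer edge of the TERT window had higher folds than that of LRRC34, at 6.32 and 5.79.

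For each member the genes most like it were found by Pearson's r of covered length within 1 kb of start sites over the 8 human libraries, which share depth and line. For TERT they were CD70 (r = 0.9946), SLC44A1 (0.9898), DOK3 (0.9896), F13A1 (0.9880) and LIME1 (0.9869), of 17034 genes compared. CD70, a TNF-family ligand of activated lymphocytes, covered 897 and 744 bp in GM12878, 248 and 227 bp in K562, 175 bp in HEK293T replicate 1, and 0 bp in HEK293T replicate 2 and HFF1. For TERC they were ZNF253 (0.9982), LMAN1 (0.9963), SNTB2 (0.9957), DBP (0.9953) and MADD (0.9907). For DKC1 they were MRPS12 (0.9946), INO80B and the read-through INO80B-WBP1 that shares its start (0.9931 each), LIX1L (0.9922) and UQCC4 (0.9921). These values describe 8 libraries and carry no test.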

How the data were processed

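The authors deposited 1 narrowPeak list per library (bulk ATAC-seq, 2 libraries of each of 5 lines), so replicates were not pooled. Per the submitters' processing notes, cutadapt 3.2, Bowtie2 2.4.2, Picard and MACS2 2.2.7.1 and the builds hg38 and mm10 were used; the settings, read shift and duplicate filter are not given in the sources used here, and a shift would move peak edges. Each deposited peak has coordinates, a score, a fold (a linear ratio over local background), and p-values and q-values as −log10. The deposited score was read and not used in any result.

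Pileups and local backgrounds were solved from fold and −log10 p with whole reads for 100% of peaks, as the Poisson p-value of MACS2 implies. Peaks on autosomes and X were assigned to GENCODE release 44 (human) or M21 (mouse) genes by at least 1 bp of overlap with 1 kb on either side of a start site, or 100 kb around the gene. Covered length, peak number and merged regions were computed with Python 3 (numpy, scipy, pandas), and 7 values were tested between lines and between immortal and HFF1 libraries by exact permutation with Benjamini-Hochberg adjustment at 0.05. Tests and merging were checked on simulated data. The deposited files give no total reads, so no counting interval was computed. Named genes were the members, genes of the pathway lists whose call differed between lines, all genes starting in the windows, regions by class, and the 5 genes most like each member. WT1, GABPA, GABPB1, RUVBL1 and POT1 were named after their values were seen. The members and lists were chosen with earlier results of these data known. An alternative scaled pileups to the lowest background level by a single random draw of the reads of each pile (random seed 11). The others were different windows, stricter peaks, equal list length, summit overlap, the replicate number as a block and leaving out each library. The numbers did not pair the samples: deviations of same-numbered libraries correlated between -0.0146 and 0.015 over 20741 regions.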

Additional observations from a re-analysis of the deposited data

How the results depend on the processing

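Of the tests between lines, 85 alternative values stayed on the same side of the threshold, 21 lost the call and 5 gained it. Of the immortal minus HFF1 differences, which the design allows to pass under no alternative, 92 did not reverse their sign and 20 did. Of the counts, 87 stayed close to the reported count and 13 did not. The causes were not tested. At the TERT start site the adjusted p no longer passed with −log10 q of at least 5 (eta squared 0.915) and, although eta squared was higher, at 0.962, after scaling to the lowest background level. At the TERC start site it no longer passed at 0.925 with windows of 2 kb, and at an unchanged 0.939 both with 20000 peaks per library and after scaling. Those last settings left every covered length at TERC as it was, and the change came from the adjustment over the other values. In the TERC window the call was lost at eta squared of 0.5 for peak number and 0.832 for covered length with 20000 peaks per library, and 0.822 for peak number after scaling. In the TERT window covered length lost the call at 0.883 within 50 kb, while peak number passed at 0.893 with stricter q and 0.932 per 100000 peaks. After scaling, peak number there had an eta squared of 0.897 and an adjusted p of 0.05 (exact permutation test). That value lies at the threshold and is counted above as passing. No value for the TERT start site could be had from 20000 peaks per library, since all libraries were at 0.

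The immortal minus HFF1 difference in TERT window peaks turned to 1.83 with 20000 peaks, 0.667 with stricter q, 0.5 by summits, 3.5 after scaling and 7.61 per 100000 peaks. Covered length there turned to 807.5, 75.7, 903, 113 (50 kb) and 2406.6 bp with 20000 peaks, stricter q, scaling, the narrower window and per 100000 peaks. At TERC, peaks turned to -0.167 with stricter q and covered length to 1520.3 bp per 100000 peaks. In the single random draw used for scaling, the TERT start site was called in 3 libraries. The TERT window then had 1 region in all immortal libraries and no HFF1, and each window had 0 in HFF1 alone. Merging summits within 250 bp gave 2 HFF1 regions near TERT.

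Leaving out each library in turn gave eta squared of 0.95 to 0.985 at the TERT start site, 0.905 to 0.999 at TERC and 0.926 to 0.993 at DKC1. In the windows it gave 0.653 to 0.981 (TERT peaks), 0.988 to 1 (TERC peaks), 0.937 to 0.993 (TERT covered length) and 0.989 to 0.998 (TERC covered length). The immortal minus HFF1 differences then ran from 347.6 to 576.8 bp, -277.3 to -35.3 bp and -107.8 to 31.8 bp at the TERT, TERC and DKC1 start sites. In the windows they ran from -3 to 2 (TERT peaks), -0.2 to 1.4 (TERC peaks), -811.7 to 529.3 bp and -1415.6 to -576.4 bp (covered length at TERT and TERC). The DKC1 difference was 31.8 bp without HEK293T replicate 1 and the TERC peak difference -0.2 without GM12878 replicate 1. The TERT peak difference was 0.3 and 0.1 without HEK293T replicates 1 and 2 and 2 without HFF1 replicate 1; covered length was 434.9, 342.1 and 529.3 bp in the same settings. Regions in all immortal libraries and no HFF1 numbered 0 to 1 at TERT, and regions in HFF1 alone 1 to 2 at TERT and 1 to 3 at TERC; leaving out libraries for regions was chosen after seeing the data.

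With the replicate number as a block, which only the labels' numbers justify, the 6 calls between lines were lost (adjusted p = 0.0972 for each, exact permutation test, smallest unadjusted p 0.0417). Eta squared was then 0.976, 0.956 and 0.936 at the TERT, TERC and DKC1 start sites, 0.994 for TERC window peaks, and 0.958 and 0.993 for covered length near TERT and TERC.

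HEK293T, with the lowest background level, limits what an absent peak there can show. Copy number and the share of reads in mitochondria or duplicates were not analysed here. Groups of 2 libraries allow no check for a single deviating library.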
